A study of Mus musculus with 359 samples.

Results

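The livers described here came from male B6C3F1 mice that received 300 mg/kg-d of 4-methylimidazole (4-MEI) by gavage for 2 days, and from males that received the vehicle (0 mg/kg-d) by the same route for the same time. The libraries were chosen by dose, sex, tissue and day as labelled: 6 at 300 mg/kg-d (replicates 65, 66, 67, 68, 69 and 72) and 6 of vehicle (replicates 1, 3, 5, 6, 7 and 8), which makes 12 of the 359 samples of the series. B6C3F1 is a hybrid mouse strain used in toxicity testing, and 4-MEI is a small imidazole compound found in caramel colouring. The labels name no allele, no transgene and no age, and other groups of the series cover lower doses, females, lung and longer exposure in feed. Expression was measured as counts of RNA sequencing reads per gene, given below as CPM, the reads of a gene scaled to library size after TMM scaling, a correction for differences in library composition.

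Hepatocytes make most plasma proteins, build fatty acids from sugar and break down foreign compounds. In inflammation, interleukin 6 acts through its signalling receptor subunit gp130, encoded by Il6st, and raises the acute phase proteins. The factors SREBP-1 and ChREBP drive the genes of fatty acid synthesis, the nuclear receptors CAR and PPAR-alpha drive genes of drug metabolism and of fatty acid breakdown, and interferons drive antiviral genes through a short promoter element.

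The 12 libraries matched their labels for tissue and sex. The 10 hepatocyte markers tested, among them Alb, Ttr and Apoa1, summed to 131995 to 149858 CPM in vehicle livers and 136625 to 155888 CPM at 300 mg/kg-d, and the 4 Y-linked genes looked at (Ddx3y, Eif2s3y, Kdm5d and Uty) summed to 128.2 to 184.8 CPM. Library totals were 8457034 to 12857743 counts for vehicle and 14905474 to 17758970 at 300 mg/kg-d, so depth did not overlap between the groups. Vehicle replicates 5, 6, 7 and 8 carried traces of female-type transcripts. Their Xist, the noncoding RNA of the inactive X chromosome, stood at 1.82, 12.3, 4.19 and 6.10 CPM, or 0.200% to 1.36% of the mean of 909 CPM in 6 vehicle females, and the other 8 male livers held at most 0.400 CPM. The labels do not say that each library came from its own animal, and p-values measure the spread between libraries. Except where only the compared groups were fitted, the gene tests took that spread from all liver groups of the same day. These groups cover both sexes and every dose, so the spread is not that of the 12 male livers alone.

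At 300 mg/kg-d the male liver had more transcript of 10 of 24 acute phase genes (6 without replicate 67), of 6 of 33 complement and clotting genes, of the interleukin 6 receptor subunit Il6st, of the growth factor Hgf, of 4 acyl-CoA thioesterase genes and of the CAR target Cyp2b10. It had less transcript of 7 of 20 fatty acid synthesis genes, 6 of 21 glutathione S-transferases and 7 of 35 interferon-stimulated genes. Lower too were 22 of 31 proteasome subunits and 27 of 70 mitochondrial ribosomal protein genes. With a trend along transcript length removed, the counts of these 7 lists, in that order, were 12, 8, 4, 3, 4, 6 and 15. With only the compared groups fitted they were 6, 7, 2, 5, 11, 14 and 18. By edgeR's quasi-likelihood test 1091 of 12627 genes tested were higher (8.64%) and 817 were lower (6.47%), together 15.1%. Most of these changes were small, with a median absolute log2 fold change of 0.39 among the calls, and 39 higher and 41 lower genes passed 2-fold. In 638 genes (5.05% of those tested) the groups did not overlap, and 553 of these were among the calls. Long transcripts moved up and short ones down across the genome, and with that trend removed 589 genes were higher (4.66%) and 513 lower (4.06%), together 8.73%. Of the 1908 calls 886 remained, and none of these changed sign.

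**Figure D1:**
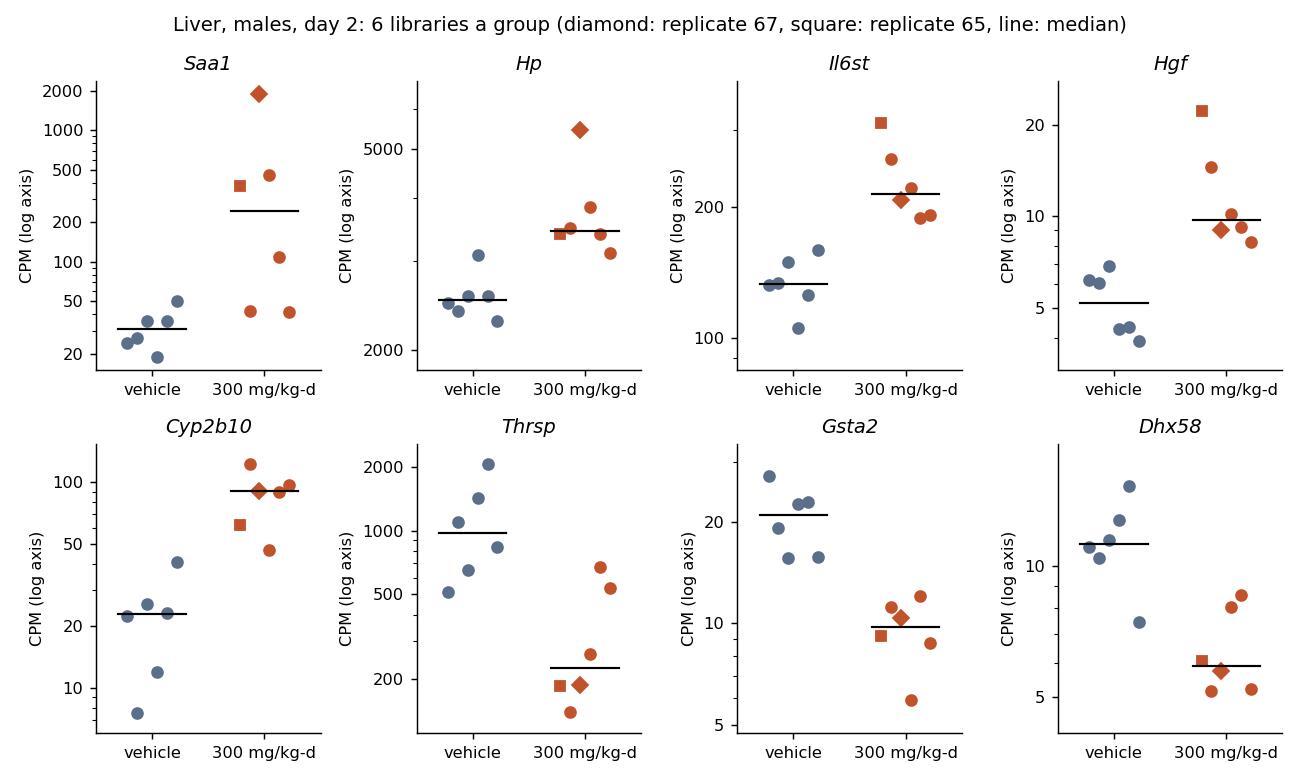
TMM-scaled CPM on log axes of 8 genes in each of the 6 vehicle and 6 treated (300 mg/kg-d) male livers, with the group median as a line, replicate 67 as a diamond and replicate 65 as a square. The groups do not overlap for Hp, Il6st, Hgf, Cyp2b10 and Gsta2 but do for Saa1, Thrsp and Dhx58, and replicate 67 is the highest library for Saa1 and Hp but not for Il6st or Hgf.

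Single libraries moved the counts unequally. Without replicate 65, the treated liver with the strongest tilt towards long transcripts, 542 genes were higher (4.28%) and 432 lower (3.41%). Without vehicle replicate 6, the vehicle liver with the strongest tilt towards short ones, 689 were higher (5.43%) and 398 lower (3.14%), and without vehicle replicate 7 the numbers were 743 (5.86%) and 529 (4.17%). Leaving out replicate 67 took the calls to 916 higher (7.23%) and 719 lower (5.67%), and 1536 of the 1908 calls were kept. Without replicate 66 there were 786 (6.20%) and 646 (5.10%), and without vehicle replicate 3 there were 801 (6.32%) and 639 (5.04%). The count went up without replicate 69, to 1144 higher (9.03%) and 1037 lower (8.18%), and without vehicle replicate 8, to 1169 (9.22%) and 1063 (8.38%). Leaving out replicate 68, replicate 72, vehicle replicate 1 or vehicle replicate 5 moved the counts least, to 1053 (8.31%) and 711 (5.61%), 1068 (8.43%) and 780 (6.15%), 1016 (8.01%) and 733 (5.78%), and 987 (7.78%) and 863 (6.81%). A core of 781 genes passed with all 12 libraries and in each of the 12 fits with 1 library left out, and 576 of them also passed with the length trend removed. With vehicle replicates 5, 6, 7 and 8 all left out, 2 vehicle livers remained and the shares were 1.72% higher (223 genes) and 1.09% lower.

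**Figure D2:**
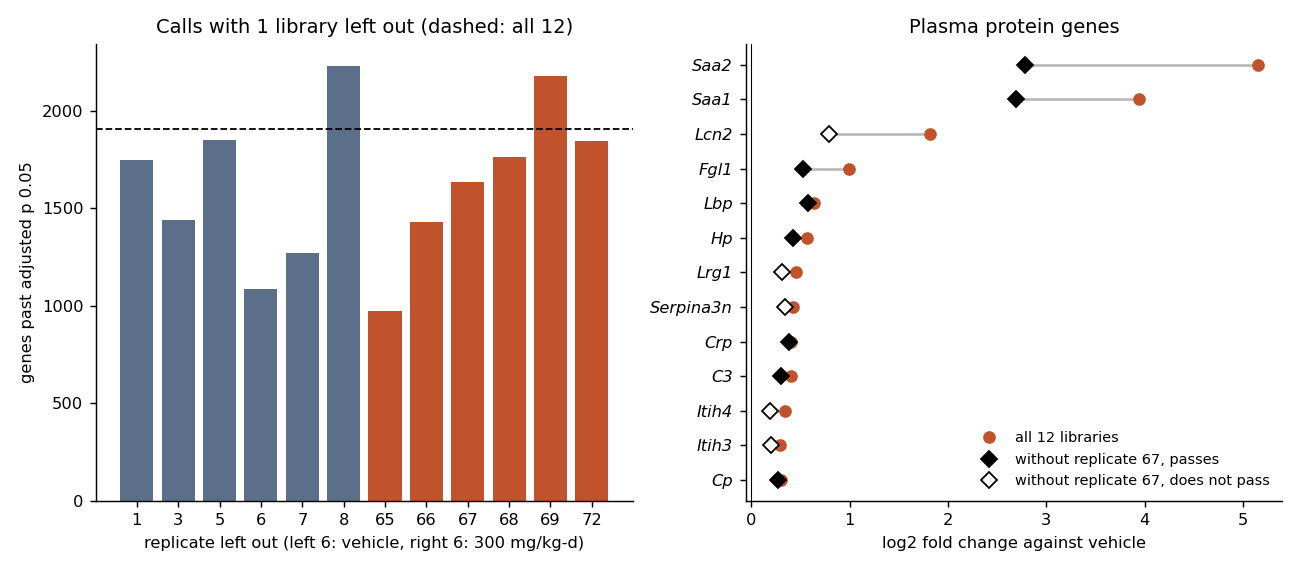
Left, number of genes past an adjusted p of 0.05 when the named replicate is left out, with the 1908 calls from all 12 libraries as a dashed line. Right, log2 fold change of 13 plasma protein genes with all 12 libraries (circles) and without replicate 67 (diamonds, open where the gene no longer passed), which shows the longest moves for Saa2, Saa1 and Lcn2.

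Part of the acute phase list rose. Of 24 acute phase genes tested, 10 rose and none fell, with a median log2 fold change of 0.30 against -0.00 over all genes tested, and with the length trend removed 12 rose. The share that rose over all genes tested was 8.64%, and 4.66% with the trend removed. The rise of Hp, the haemoglobin scavenger haptoglobin, was present in every treated liver: its lowest, median and highest values were 2276, 2511 and 3078 CPM in vehicle livers and 3113, 3439 and 5461 CPM at 300 mg/kg-d (log2 fold change 0.57, SE 0.11, adjusted p 0.000481), with no overlap. Crp, C-reactive protein, went from 354, 386 and 408 CPM to 417, 509.7 and 565 CPM (log2 fold change 0.40, SE 0.09, adjusted p 0.00237), also with no overlap. Cp, the copper carrier ceruloplasmin, rose by 0.30 (adjusted p 0.00532) with separate groups, and Lbp, which binds bacterial lipopolysaccharide, rose by 0.64 (adjusted p 0.00589) with groups that overlapped.

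Replicate 67 set the size of the largest acute phase changes. Its Saa1, one of the serum amyloid A genes, stood at 1903 CPM, while the other 5 treated livers ranged from 41.2 to 458 CPM and the vehicle livers from 18.7 to 50.2 CPM. Saa2 stood at 1172 CPM in replicate 67, and treated replicates 66, 69 and 72 held 4.203, 10.6 and 5.85 CPM against 3.46 to 8.92 CPM in vehicle livers. For Saa2 replicates 66 and 72 lay within the vehicle range, replicate 69 just above it, and replicates 65, 67 and 68 far above it. Without replicate 67 the log2 fold change of Saa1 dropped from 3.94 to 2.69 (adjusted p 0.000472) and that of Saa2 from 5.15 to 2.78 (adjusted p 0.00847), and both calls stayed. Saa1 and Saa2 are near-identical copies between which reads could be split, which makes the level of each uncertain.

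Other acute phase calls did not survive the removal of replicate 67. The count on the list fell from 10 to 6, with the loss of Lcn2, Itih3, Itih4 and Serpina3n. Lcn2, which encodes the iron-siderophore binder lipocalin 2, held 38.96 CPM in replicate 67, 3.08 to 9.04 CPM in the other treated livers and 2.44 to 3.69 CPM in vehicle livers. Its log2 fold change went from 1.81 to 0.79 (adjusted p 0.133). Itih4, a protease inhibitor heavy chain, went from 0.35 to 0.19 (adjusted p 0.152) and Itih3 from 0.30 to 0.20 (adjusted p 0.187). Serpina3n, a serine protease inhibitor, went from 0.42 to 0.35 (adjusted p 0.0914), and it also lost its call without replicates 65 and 66 and without vehicle replicates 3, 6 and 7. Itih3 lost its call without replicates 65 and 66 and without vehicle replicates 1, 3, 5 and 7 as well. Orm2, an orosomucoid gene that did not pass (adjusted p 0.109), held 56.4 CPM in replicate 67 and at most 19.9 CPM in the other treated livers, and its log2 fold change without that library was -0.0020.

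Outside the list, replicate 67 was also the outlying high library of Fgl1, a liver-secreted fibrinogen-like protein, at 784 CPM against 201 to 278 CPM in the other treated livers and 134.8 to 194.5 CPM in vehicle livers. Fgl1 went from a log2 fold change of 0.99 to 0.53 without it and stayed a call (adjusted p 0.0317). Lrg1, a leucine-rich plasma glycoprotein, went from 0.45 to 0.32 and lost its call (adjusted p 0.0855). Over all genes tested, replicate 67 was the outlying library of its group in 76 genes, with 64 to 192 over the 12 libraries, against 192 for replicate 65, 186 for replicate 72 and 189 for vehicle replicate 8. Neutrophil markers had low counts in the livers. The 3 neutrophil markers tested were not called, Mpo was at 0 in all 12 livers, and the 11 neutrophil markers in the table summed to at most 5.22 CPM in any treated liver and 3.26 CPM in any vehicle liver. Their part in the result was not tested.

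The rise of Il6st did not rest on replicate 67. It encodes gp130, the receptor subunit shared by the interleukin 6 cytokines (chromosome 13, 112464070 to 112510086, build GRCm38), and its values were 105.4, 132.8 and 158.9 CPM in vehicle livers and 188.3, 213.4 and 311 CPM at 300 mg/kg-d (log2 fold change 0.77, SE 0.12, adjusted p 2.48e-05), with no overlap. Without replicate 67 the log2 fold change was 0.79, and the highest adjusted p with any 1 library left out was 0.000284. It has a long transcript, and removing the length trend lowered the log2 fold change to 0.55 (adjusted p 5.91e-05). Jak2, a kinase that signals below gp130 and below the growth hormone receptor, rose by 0.31 (adjusted p 0.00473) with no overlap, and its adjusted p was 0.0497 with the length trend removed.

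Some complement and clotting genes of the hepatocyte rose, 6 of 33 tested with none lower (median log2 fold change 0.10), and 8 with the length trend removed. Among all genes tested 8.64% rose, and 4.66% with the trend removed. C3, the central complement protein, ran at 6298, 7182 and 7319.6 CPM in vehicle livers and 7796, 8877 and 12148 CPM at 300 mg/kg-d (log2 fold change 0.40, SE 0.09, adjusted p 0.00119), with no overlap. The clotting factor genes F9 and F5 rose by 0.38 and 0.50 (adjusted p 9.29e-05 and 0.00254). F9 had separate groups, 226.7, 242 and 282 CPM against 299.9, 313 and 363 CPM. F13b and the protein S gene Pros1 rose by 0.28 and 0.44 (adjusted p 0.0136 and 0.0302), but F13b lost its call without replicate 65 or vehicle replicate 7 (adjusted p up to 0.0622), and Pros1 without replicate 65 or 66 or vehicle replicate 1, 3, 6 or 7 (adjusted p up to 0.0954).

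Some fatty acid synthesis genes fell, with wide spread among the vehicle livers. Of 20 tested, 7 fell and none rose, with a median log2 fold change of -0.68, and with the length trend removed 4 fell. All genes tested together had 6.47% lower, and 4.06% with the trend removed. Thrsp, a lipogenic regulator, had lowest, median and highest values of 515, 969.8 and 2055 CPM in vehicle livers and 138.7, 224 and 669.9 CPM at 300 mg/kg-d (log2 fold change -1.74, SE 0.46, adjusted p 0.00863). Its groups overlapped, since treated replicates 69 and 72 lay above the lowest vehicle liver. Srebf1, which encodes SREBP-1, went from 251.1, 422 and 552 CPM to 81.2, 189.5 and 346 CPM (log2 fold change -1.07, SE 0.34, adjusted p 0.0245), and its groups overlapped. Treated replicates 65 and 66 were lowest, at 82.8 and 81.2 CPM, and replicates 68 and 69 reached into the vehicle range, at 259 and 346 CPM.

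The other calls of the list were Acly, which makes cytosolic acetyl-CoA from citrate, Acss2, which makes it from acetate, Me1, the malic enzyme, Mlxipl, which encodes ChREBP, and the citrate carrier Slc25a1. They fell by 1.12, 1.06, 0.72, 0.40 and 0.36 on the log2 scale (adjusted p 0.0287, 0.014, 0.032, 0.0331 and 0.0458). With 1 library left out at a time, the calls of Acly, Acss2, Me1, Mlxipl and Slc25a1 were lost in 5, 2, 5, 7 and 7 of the 12 fits. Me1, Mlxipl and Slc25a1 did not pass with the length trend removed. Fatty acid synthase itself, Fasn, did not pass: its values were 338, 851 and 1838 CPM in vehicle livers and 151.9, 405 and 656 CPM at 300 mg/kg-d (log2 fold change -1.30, adjusted p 0.0763). Scd1 and Pnpla3 had log2 fold changes of -1.23 and -2.56 and did not pass either (adjusted p 0.12 and 0.0572). The 25 cholesterol genes tested gave no call in either direction by edgeR (6 had an unadjusted p under 0.05), at a median log2 fold change of -0.34, and DESeq2 called 0 higher and 1 lower. By edgeR 3 cholesterol genes fell without replicate 68, 2 without vehicle replicate 8 and 1 without vehicle replicate 1. The count of 7 lipogenic calls depended on single livers: it was 3 without replicate 65, 2 without replicate 66, 4 without replicate 67, 4 without vehicle replicate 3, and 1 without vehicle replicate 6 or vehicle replicate 7, where Thrsp stayed past the threshold. With only the compared groups fitted it was 2, and with vehicle replicates 5, 6, 7 and 8 all left out it was 0.

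More targets of the antioxidant factor NRF2 fell than rose. Of 19 NRF2 targets tested, 7 fell and 2 rose, and with the length trend removed 3 fell and 1 rose. The shares over all genes tested were 6.47% lower and 8.64% higher, and 4.06% and 4.66% with the trend removed. Transketolase, Tkt, fell from 131.1, 140.97 and 192.3 CPM to 98.8, 103.9 and 120.2 CPM (log2 fold change -0.49, SE 0.10, adjusted p 0.000855), with no overlap. Pgd, another pentose phosphate enzyme, fell by 0.78 (adjusted p 0.0119), while G6pdx, the entry enzyme of that pathway, did not pass (log2 fold change -0.44, adjusted p 0.27). Nqo1, the quinone reductase most used as an NRF2 marker, fell by 0.78 (adjusted p 0.015, 0.0516 with the length trend removed). Ftl1, the ferritin light chain, fell by 0.44 (adjusted p 0.00583, 0.0822 with the trend removed) with separate groups. The genes that rose were Hmox1, the haem-degrading oxygenase, from 9.65, 10.7 and 12.1 CPM to 12.1, 15.8 and 19.3 CPM (log2 fold change 0.56, SE 0.15, adjusted p 0.00857), and Gclm, the regulatory subunit of glutathione synthesis, by 0.31 (adjusted p 0.0021). The groups did not overlap for either, and Gclm did not pass with the length trend removed (adjusted p 0.114). The count of genes that fell was 4 without vehicle replicate 6 and 3 without vehicle replicate 7. Nqo1 also lost its call without vehicle replicate 1 and Pgd without vehicle replicate 6, and without vehicle replicate 7 both no longer passed (adjusted p 0.0614 and 0.0676).

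Several glutathione S-transferases, which attach glutathione to reactive compounds, were lower. Of 21 tested, 6 fell and none rose (median log2 fold change -0.42), and 3 fell with the length trend removed, all of them alpha-class genes. For all genes tested the share lower was 6.47%, and 4.06% with the trend removed. Gsta2 went from 15.6, 20.9 and 27.2 CPM to 5.93, 9.78 and 12.03 CPM (log2 fold change -1.10, SE 0.27, adjusted p 0.00473) and Gsta4, which acts on lipid aldehydes, from 59.7, 74.7 and 84.8 CPM to 37.3, 46.3 and 57.7 CPM (log2 fold change -0.68, SE 0.15, adjusted p 0.00186), both with no overlap. Gsta1 was scarce, at 0.331, 0.916 and 1.36 CPM in vehicle livers and 0.124, 0.211 and 0.333 CPM at 300 mg/kg-d (log2 fold change -1.97, SE 0.51, adjusted p 0.00607). Gstm1, Gstm4 and Gstp2 fell by 0.60, 0.81 and 0.70 (adjusted p 0.00722, 0.0238 and 0.0166), and none of these 3 passed with the trend removed (adjusted p 0.0516, 0.0665 and 0.1). Gstm4 also lost its call without replicate 72 or vehicle replicate 1, 6 or 7, and Gstp2 without replicate 65 or vehicle replicate 6. Close copies in this family may trade reads, and the level of a single member is uncertain.

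Of all genes tested 8.64% rose, and 4.66% with the length trend removed. Among 35 PPAR-alpha targets and fatty acid oxidation genes tested, 6 rose and none fell (median log2 fold change 0.23), and 7 rose with the length trend removed. Among them, Acot1, Acot2, Acot3 and Acot4 are acyl-CoA thioesterases, which split fatty acyl-CoA into fatty acid and coenzyme A and lie side by side on chromosome 12. Acot1 went from 13.4, 23.9 and 52.7 CPM in vehicle livers to 50.8, 59.4 and 137.9 CPM at 300 mg/kg-d (log2 fold change 1.37, SE 0.33, adjusted p 0.00386), with 5 of 6 treated livers above every vehicle liver. Acot3 went from 2.32, 10.5 and 13.9 CPM to 4.66, 36.9 and 102.01 CPM (log2 fold change 2.18, SE 0.51, adjusted p 0.00288), with treated replicate 72 at the level of the vehicle livers. Acot2 and Acot4 rose by 1.00 and 0.81 (adjusted p 0.0333 and 0.0141). Replicate 66 was the highest library for all 4 thioesterases, and without it Acot1 and Acot3 still passed (adjusted p 0.0275 and 0.0224) while Acot2 and Acot4 did not (adjusted p 0.196 and 0.0541). Acot2 also lost its call without replicate 65 or vehicle replicate 1, 3, 5 or 6, and Acot4 with the length trend removed.

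Cyp4a32, a fatty acid hydroxylase, and Acadl, long-chain acyl-CoA dehydrogenase, rose by 0.82 and 0.25 (adjusted p 0.0283 and 0.0423) and also lost their calls without replicate 66 (adjusted p 0.226 and 0.137). Cyp4a32 did so as well without replicate 65 or vehicle replicate 3, 6 or 7, and Acadl in 8 of the 12 fits that leave out 1 library. Cpt1a, which carries fatty acids into mitochondria, did not pass (log2 fold change 0.55, adjusted p 0.122). Its treated livers ran from 903 and 959 CPM in replicates 65 and 66 to 348 and 316 CPM in replicates 69 and 72, while vehicle livers spanned 252 to 677 CPM. The count of calls on this list was 3 without replicate 65, 2 without replicate 66, 3 without vehicle replicate 3 or vehicle replicate 6, and 12 without vehicle replicate 8.

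Genes of drug metabolism under CAR and its relative PXR split in direction, 4 higher and 6 lower of 31 tested, and 7 and 4 with the length trend removed. Their background over all genes tested was 8.64% higher and 6.47% lower, and 4.66% and 4.06% with the trend removed. Cyp2b10, the usual CAR marker, ran at 7.55, 22.8 and 40.9 CPM in vehicle livers and 46.98, 90.4 and 123.4 CPM at 300 mg/kg-d (log2 fold change 1.94, SE 0.54, adjusted p 0.011), with no overlap. The other genes that rose were Cyp3a13, a cytochrome P450, from 132.7, 152.3 and 153.8 CPM to 158.6, 199.9 and 234.6 CPM (log2 fold change 0.42, SE 0.10, adjusted p 0.00421), the sulfotransferase Sult1d1 by 0.91 (adjusted p 0.0133) and Por, the electron donor of all microsomal P450 enzymes, by 0.79 (adjusted p 0.0193). Sult1d1 did not pass without replicate 66 (adjusted p 0.0535), nor did Por without replicate 65 or 66 or vehicle replicate 6 or 7 (adjusted p up to 0.0837). Cyp3a11, the usual PXR marker, did not pass, at 2666, 3099 and 4097 CPM and 2989, 3363 and 4859.6 CPM (log2 fold change 0.18, adjusted p 0.562). The genes that fell included Gsta1, Gsta2 and Gstm1, described above, the glucuronosyltransferase Ugt2b35 by 0.48 (adjusted p 0.0189) and the female-biased Cyp2b9, which fell by 2.05 (adjusted p 0.0125). Cyp2b9 lost its call without vehicle replicate 6 (adjusted p 0.0758) and without vehicle replicates 5, 6, 7 and 8 together. Ugt2b35 lost its call without replicate 65 or 66 or vehicle replicate 1 or 6 (adjusted p up to 0.0667). Neither passed with only the compared groups fitted. Cyp2b and Cyp3a genes have near-identical copies, and their single values are uncertain. The count of higher genes was 2 without replicate 66. With only the compared groups fitted 4 genes were higher and 2 lower.

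**Figure D3:**
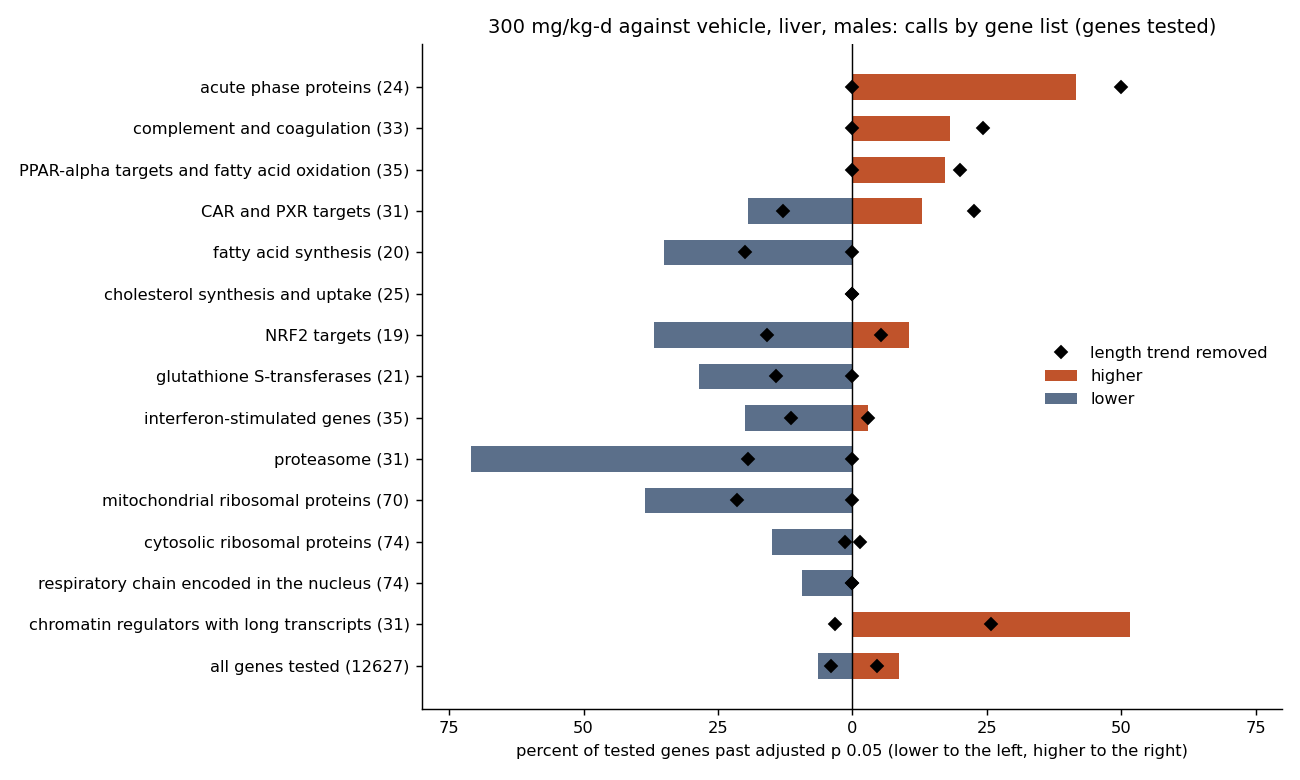
Percent of the tested genes of 14 lists, and of all genes tested, that were called higher (right) or lower (left) at 300 mg/kg-d in males, with bars for the counts as measured and diamonds for those with the length trend removed. Without the trend acute phase and complement genes gain calls, while the proteasome list goes from 22 to 6, mitochondrial ribosomal proteins from 27 to 15 and the respiratory chain from 7 to 0.

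Of 35 interferon-stimulated genes tested, 7 fell and 1 rose (median log2 fold change -0.41), and with the length trend removed 4 fell. Beside these counts, 6.47% of all genes tested fell and 8.64% rose, and 4.06% fell with the trend removed. Dhx58, a cytosolic sensor of viral RNA, went from 7.43, 11.3 and 15.4 CPM to 5.16, 5.90 and 8.58 CPM (log2 fold change -0.82, SE 0.19, adjusted p 0.00242), with an overlap through vehicle replicate 8 alone. Psmb9, a catalytic subunit of the immunoproteasome, went from 7.84, 8.58 and 10.2 CPM to 3.29, 5.14 and 5.94 CPM (log2 fold change -0.84, SE 0.23, adjusted p 0.0102), with no overlap. Ifi35 fell by 0.46 (adjusted p 0.00181) and Oasl1, an oligoadenylate synthetase-like gene, fell by 0.99 (adjusted p 0.0194). Irf7, the master regulator of type I interferon genes, the ubiquitin-like modifier Isg15 and the virus-tethering protein gene Bst2 fell by 0.59, 0.77 and 0.37 (adjusted p 0.0354, 0.045 and 0.0373) but did not pass with the length trend removed (adjusted p 0.0597, 0.141 and 0.271). With 1 library left out at a time, Irf7, Isg15, Bst2 and Oasl1 lost their calls in 6, 8, 5 and 4 of the 12 fits. The gene that rose was Trim25, a ubiquitin ligase of the RNA sensing pathway, by 0.48 (adjusted p 0.00614). The count of genes that fell was 3 without replicate 65 or replicate 66 and 4 without vehicle replicate 6 or vehicle replicate 7.

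The promoters of Isg15 and Bst2 are shown because they hold the interferon-stimulated response element searched for, GAAANNGAAA on either strand, in overlapping copies. They are the RefSeq stretches of build GRCm38.p6 from 250 bases before to 50 after the start of the gene, written 5′ to 3′ along the gene, with the matches in capitals. Isg15 lies on the minus strand (chr4:156200769-156201068) and so does Bst2 (chr8:71537423-71537722).
Isg15: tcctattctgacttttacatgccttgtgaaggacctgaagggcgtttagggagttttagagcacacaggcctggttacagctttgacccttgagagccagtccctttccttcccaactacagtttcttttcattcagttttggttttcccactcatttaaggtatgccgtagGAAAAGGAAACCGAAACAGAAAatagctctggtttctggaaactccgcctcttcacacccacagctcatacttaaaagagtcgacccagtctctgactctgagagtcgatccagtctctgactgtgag
Bst2: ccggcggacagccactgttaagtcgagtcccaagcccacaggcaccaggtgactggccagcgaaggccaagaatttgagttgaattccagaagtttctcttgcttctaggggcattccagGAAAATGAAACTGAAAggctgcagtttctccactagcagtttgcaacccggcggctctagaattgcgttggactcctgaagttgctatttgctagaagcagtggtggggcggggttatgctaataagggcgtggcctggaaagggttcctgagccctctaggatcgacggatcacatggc
Isg15 has 3 overlapping matches, which begin 78, 72 and 66 bases before the start, and Bst2 has 2, the first of which begins 130 bases before it. Of the 35 interferon-stimulated genes 23 had a promoter in the table, and 11 of the 23 (47.8%) held the element, against 3.12% of the promoters of 9628 tested genes. Among the genes of the list that fell, 6 had a promoter in the table and 2 of these held the element (33.3%). A match describes these letters and not a bound site. Searches on either strand for TTCNNNGAA, the palindrome that STAT factors bind, found it in 6 of 20 acute phase promoters and in 1 of the 8 of genes that rose (12.5%), against 7.26% of all tested promoters. CACGTG, the E-box that ChREBP and clock factors bind, was in 2 of 17 fatty acid synthesis promoters (11.8%), against 10.3% of all.

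Some female-biased liver genes fell where vehicle livers carried traces of them. The male liver normally keeps Cyp2b9, Cyp2b13, Cyp2a4 and Sult3a1 low. Cyp2b13 was at 0 in vehicle replicates 1 and 3, at 0.828, 2.24, 0.985 and 2.03 CPM in vehicle replicates 5, 6, 7 and 8, and at most 0.0652 CPM in treated livers. Cyp2a4 stood at 7.43, 8.21 and 11.6 CPM in vehicle replicates 6, 7 and 8, at 1.13, 1.74 and 2.48 CPM in the other vehicle livers and at 0.743 to 1.69 CPM at 300 mg/kg-d. Vehicle replicates 5, 6, 7 and 8 are those that held Xist, and their Cyp2b13, Sult3a1, Cyp2b9, Cyp2a4 and A1bg were at 0.129% to 2.20% of the mean of vehicle females. Traces were not limited to them, since Cyp2b9 was at 0.200% of that mean in vehicle replicates 1 and 3. Highest among the treated livers were replicate 69, with Cyp2b9 at 0.510% and A1bg at 0.486%, and replicate 66, with A1bg at 0.423%. Without vehicle replicates 5, 6, 7 and 8 the log2 fold changes were 1.10 for Cyp2b13, -0.24 for Cyp2a4 and 0.51 for Xist, from -5.73, -2.22 and -4.83 with all libraries, and none of the 3 passed (adjusted p 0.886, 0.846 and 0.853). Cyp2b9 and Sult3a1 did not pass in that fit either, and 0 genes of the female-biased list were lower in it.

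On the female-biased list 4 of 27 genes tested were lower and 2 were higher, against 6.47% lower and 8.64% higher over all genes tested. The higher genes were Acot3 and Fmo2, a flavin monooxygenase, which went from 13.5, 18.1 and 30.8 CPM to 24.2, 36.99 and 81.7 CPM (log2 fold change 1.25, SE 0.27, adjusted p 0.00137) and rose by 1.46 without vehicle replicates 5, 6, 7 and 8 (adjusted p 0.0421). On the male-biased list 1 gene of 27 was lower and 0 higher, with a median log2 fold change of 0.01. Socs2, the feedback inhibitor that growth hormone induces, rose by 1.89 (adjusted p 0.0231), with treated livers from 5.34 CPM in replicate 72 to 119.8 CPM in replicate 66 and vehicle livers from 2.32 to 24.96 CPM. It lost its call without replicate 66 (adjusted p 0.136) and without vehicle replicate 3 or 6.

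Hgf, hepatocyte growth factor, which stellate cells make (chromosome 5, 16553495 to 16620152), ran at 3.91, 5.20 and 6.87 CPM in vehicle livers and 8.23, 9.71 and 22.2 CPM at 300 mg/kg-d (log2 fold change 1.21, SE 0.22, adjusted p 0.000231), with no overlap. It changed little with the length trend removed (log2 fold change 1.22) and without replicate 67 (1.28), and its adjusted p without replicate 65, its highest library, was 0.0036. Gja1, the gap junction protein connexin 43, went from 2.34, 2.96 and 4.47 CPM to 4.23, 6.54 and 8.77 CPM (log2 fold change 1.05, SE 0.21, adjusted p 0.000739), with a single treated liver below the highest vehicle liver. Kdr, the endothelial receptor of vascular growth factor, rose by 0.43 (adjusted p 0.00168), and Bmp2, which sinusoidal endothelium sends to hepatocytes to raise hepcidin, by 0.49 (adjusted p 0.0289). Smad9, which is induced by bone morphogenetic proteins, rose by 1.19 (adjusted p 0.0143). Hamp2, a hepcidin copy, fell by 1.08 (adjusted p 0.0394), and Hamp, hepcidin itself, did not pass (log2 fold change -0.54, adjusted p 0.48). Hamp was looked at after its values were seen. Bmp2 lost its call without replicate 65 or vehicle replicate 3, 6 or 7, Smad9 without replicate 66 or vehicle replicate 6, and Hamp2 without any 1 of 9 of the 12 libraries (adjusted p up to 0.125, 0.0695 and 0.11). Hamp2 also lost its call with the length trend removed.

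Markers of other liver cells, among which are Hgf, Kdr and Bmp2 themselves, were counted by list, beside 8.64% higher and 6.47% lower over all genes tested. Of 14 sinusoidal endothelium markers 4 rose (Kdr, Bmp2, Fcgr2b and Pecam1) and none fell, and their summed level was 449 to 573 CPM in vehicle livers and 519 to 694 CPM at 300 mg/kg-d. Without replicate 65, or vehicle replicate 3, 6 or 7, 1 endothelial marker rose. Of 14 stellate cell and fibroblast markers 3 rose (Hgf, Reln and Rgs5), with sums of 328 to 428 and 376 to 469.6 CPM. Reln did not pass with the length trend removed. Kupffer cell markers split, with Slc40a1, the iron exporter ferroportin, higher by 0.54 (adjusted p 0.0101) and Cd5l lower by 0.50 (adjusted p 0.0194, 0.0547 without replicate 65), and sums of 359.9 to 455 and 357 to 508 CPM. Cd5l also lost its call with the length trend removed. Itgam, the integrin CD11b of myeloid cells, rose from 0.302, 0.479 and 0.814 CPM to 1.14, 1.55 and 2.61 CPM (log2 fold change 1.74, SE 0.32, adjusted p 0.000311), with no overlap, while the other 3 monocyte markers tested did not pass. Cholangiocyte, neutrophil, T and NK cell, B and plasma cell, erythroid, adipocyte, gut and pancreatic acinar markers gave no call by edgeR, with 1 cholangiocyte, 1 adipocyte and 1 acinar gene at an unadjusted p under 0.05, and DESeq2 called 1 acinar gene lower. Of the acinar and erythroid genes listed, 8 of 10 acinar and all 6 globin genes were at 0 in all 12 livers. A count of 0 in every liver, here or for Mpo above, does not show absence. The ribosomal protein gene Rpl26, the respiratory chain gene Ndufs5 and the glycolysis gene Eno1 were at 0 in all 12 livers too. The cause was not tested. More cells of a type and more RNA per cell cannot be told apart in whole liver, and the part of these cells in the changes above was not tested.

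Several genes with very small adjusted p changed by modest amounts. A1cf, the RNA-binding cofactor of apolipoprotein B mRNA editing, went from 113.2, 122.8 and 163 CPM to 200.4, 212.5 and 257 CPM (log2 fold change 0.79, SE 0.12, adjusted p 3.61e-05), with no overlap, and its log2 fold change was 0.80 with the length trend removed. Lnpep, an insulin-regulated aminopeptidase, rose by 0.97 (adjusted p 2.48e-05), Usp9x, a deubiquitinase, by 0.73 (adjusted p 2.48e-05), and the phosphatase gene Ppm1l by 0.83 (adjusted p 2.39e-05). Btbd7 and the scaffold gene Iqgap2 rose by 0.85 and 0.42 (adjusted p 2.39e-05 and 5.26e-05). Among genes that fell, Rtcb, the ligase of tRNA splicing, went from 64.6, 69.03 and 71.8 CPM to 52.3, 54.9 and 60.6 CPM (log2 fold change -0.31, SE 0.04, adjusted p 1.72e-05). Mettl22, a protein methyltransferase, fell by 0.76 (adjusted p 2.48e-05), the exosome subunit Exosc7 by 0.50 (adjusted p 3.19e-05) and Fbxw5, a ubiquitin ligase subunit, by 0.35 (adjusted p 5.26e-05). The groups did not overlap for any of these 10 genes, and all 10 passed in every alternative tried.

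Larger folds came with more spread. Gprin3 rose from 3.92, 5.77 and 7.90 CPM to 9.65, 14.6 and 25.8 CPM (log2 fold change 1.49, SE 0.30, adjusted p 0.000686), with no overlap. The cell cycle repressor E2f8 rose by 1.60 (adjusted p 0.00712), but vehicle replicates 7 and 8, at 11.99 and 8.22 CPM, lay within the treated range of 6.81 to 26.2 CPM. Mcm5, a subunit of the replication helicase, fell by 1.61 (adjusted p 0.0017) and by 0.79 without vehicle replicates 5, 6, 7 and 8 (adjusted p 0.397). Chrna4, a nicotinic receptor subunit, fell by 4.28 (adjusted p 0.00403), and 3 vehicle livers carried it, replicates 3, 6 and 7 at 15.1, 27.2 and 44.2 CPM. The other 3 vehicle livers held 1.96, 1.57 and 1.88 CPM and the treated livers 0.133 to 1.76 CPM. Adam11 fell from 10.4, 15.5 and 19.5 CPM to 5.26, 7.58 and 9.19 CPM (log2 fold change -1.05, SE 0.19, adjusted p 0.000277), with no overlap, and Fam65b fell by 1.67 (adjusted p 0.0024). The long noncoding RNA Snhg11 fell by 0.97 (adjusted p 0.00472), and Neat1, the RNA of nuclear paraspeckles, by 0.94 (adjusted p 0.0358), although Neat1 lost its call without any 1 of 8 of the 12 libraries (adjusted p up to 0.107). The transcription regulator Hes6 fell by 0.96 (adjusted p 0.0303) and the GTPase gene Rab30 rose by 1.53 (adjusted p 0.0195). Hes6 lost its call without replicate 65, 66 or 67 or vehicle replicate 6 or 7, and Rab30 without replicate 65 or 66 or vehicle replicate 7 (adjusted p up to 0.108 and 0.0819). Neither passed with the length trend removed.

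In histidine breakdown Amdhd1 went from 116.7, 129.4 and 196.4 CPM to 93.8, 101.5 and 114.2 CPM (log2 fold change -0.50, SE 0.11, adjusted p 0.00223) and Ftcd from 414, 445 and 523 CPM to 293, 363 and 374 CPM (log2 fold change -0.38, SE 0.09, adjusted p 0.00301), both with no overlap. The alanine aminotransferase gene Gpt and the proline oxidase gene Prodh fell by 0.37 and 0.41 (adjusted p 0.00915 and 0.0238), and Kynu, of tryptophan breakdown, rose by 0.32 (adjusted p 0.0267). Of 35 genes of the urea cycle and amino acid breakdown 5 fell and 1 rose, against 6.47% lower and 8.64% higher over all genes tested. Without replicate 65, or vehicle replicate 6 or 7, 3 fell, and none rose in those fits or without replicate 67. Without replicate 68 or replicate 72, 4 fell and 2 rose.

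Of 23 bile acid genes tested 1 rose and 2 fell, against 8.64% higher and 6.47% lower over all genes tested. With each library left out 0 to 1 rose and 1 to 2 fell. Hsd3b7, an early enzyme of synthesis, fell from 382, 434 and 525 CPM to 274, 298 and 365 CPM (log2 fold change -0.52, SE 0.11, adjusted p 0.00155), with no overlap. Abcb4, the phospholipid exporter of bile, rose by 0.45 (adjusted p 0.0252) and Nr0b2, the repressor SHP, fell by 0.96 (adjusted p 0.049). Abcb4 lost its call without replicate 65 or 66 or vehicle replicate 6 or 7, and Nr0b2 without any 1 of 9 of the 12 libraries (adjusted p up to 0.0841 and 0.137). Nr0b2 also lost its call with the length trend removed. Of 23 genes of apolipoproteins and lipoprotein handling 3 rose and 3 fell, against 8.64% and 6.47% over all genes tested. Without replicate 65 or vehicle replicate 6 none fell and 2 or 3 rose. Without replicate 66, 1 rose. The carnitine carrier gene Slc22a5 rose by 0.83 (adjusted p 0.00598), Apoa4, an apolipoprotein of triglyceride-rich particles, by 0.72 (adjusted p 0.015) and Apob by 0.38 (adjusted p 0.00368). Apob, with a very long transcript, did not pass with the length trend removed (adjusted p 0.366), and Apoa4 did not without replicate 66 (adjusted p 0.0637). Insr, the insulin receptor, rose by 0.44 (adjusted p 0.00883) and lost its call with the trend removed (adjusted p 0.177) and without replicate 65 (adjusted p 0.0508). Mat1a, the S-adenosylmethionine synthase of liver, rose by 0.51 (adjusted p 0.0484), and the call was lost without any 1 of 8 of the 12 libraries (adjusted p up to 0.198). It was also lost with the length trend removed. Sort1, a lipoprotein sorting receptor, fell by 0.56 (adjusted p 0.0252) and lost its call without replicate 65, 66 or 67 or vehicle replicate 3 or 6 (adjusted p up to 0.076). The clock gene Clock rose by 0.59 and the early response gene Ier3 by 0.93 (adjusted p 0.0327 and 0.0114), and Clock did not pass with the length trend removed (adjusted p 0.252) or without any 1 of 6 of the 12 libraries (adjusted p up to 0.102).

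Transcript length ran through the whole comparison. Each library was given a slope, the change of log2 CPM, relative to the mean of the 12 libraries, per unit of log10 transcript length. The slopes were -0.363 to -0.081 in vehicle livers (mean -0.189, SD 0.112, n = 6) and 0.048 to 0.438 at 300 mg/kg-d (mean 0.189, SD 0.133, n = 6), with no overlap. The difference of 0.377 had a two-sided p of 0.00216 by exact permutation over all splits, the smallest that 6 against 6 libraries can give. It was 0.384 without replicate 67 (exact permutation p 0.00433), 0.388 with counts thinned to the smallest library total, 0.440 over genes of at least 10 CPM and 0.295 with merged exon length in place of the longest transcript. The most extreme libraries were replicate 65, with a slope of 0.438, and vehicle replicate 6, with -0.363, the libraries whose removal cost the most calls.

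**Figure D4:**
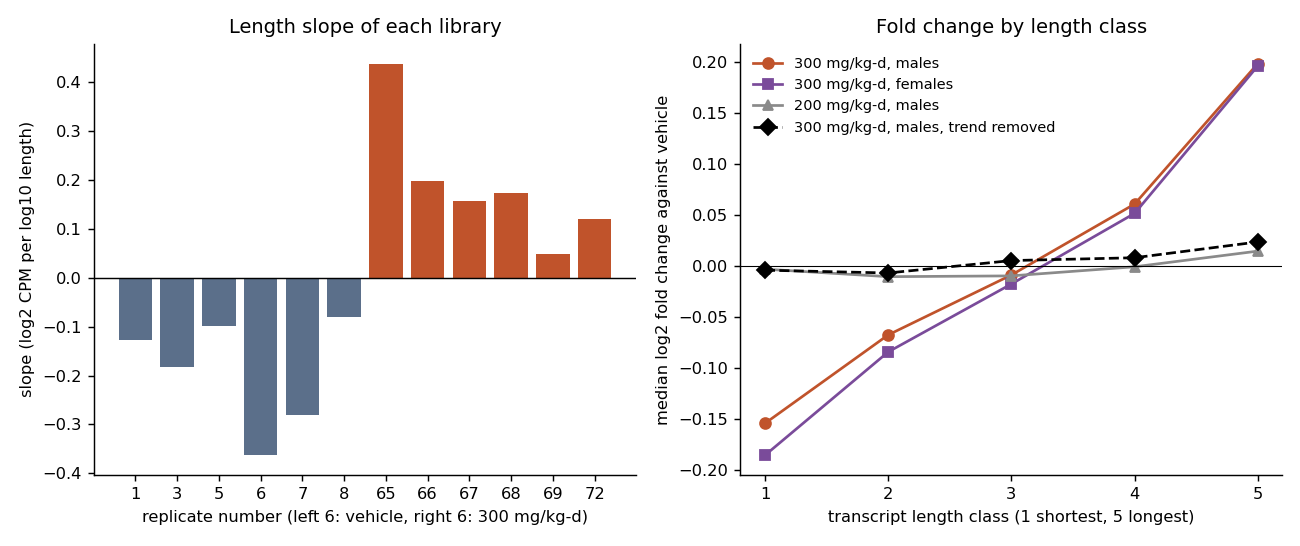
Left, slope of log2 CPM on log10 transcript length in each of the 12 male livers, with vehicle livers all below 0 and treated livers all above it. Right, median log2 fold change against vehicle in 5 classes of transcript length of about 2510 genes each, which climbs from -0.15 to 0.20 at 300 mg/kg-d in males and stays near 0 at 200 mg/kg-d and with the trend removed.

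In the shortest of 5 length classes, with transcripts of 67 to 1952 bases, the median log2 fold change was -0.15, and 27 genes were higher and 346 lower. In the longest class, with 5241 to 123179 bases, it was 0.20, and 616 genes were higher and 34 lower. With the trend removed the same classes held 3.42% higher and 2.94% lower, and 6.93% higher and 5.34% lower genes. The trend was shared with the females at 300 mg/kg-d, whose class medians ran from -0.19 to 0.20, and was weak in males at 200 mg/kg-d, with -0.01 to 0.01. On the scale of all 60 day 2 liver libraries, mean slopes were -0.142 in vehicle males, -0.013, -0.020 and -0.121 at 50, 100 and 200 mg/kg-d and 0.235 at 300 mg/kg-d. Those of the females were -0.123 with vehicle, -0.041, -0.109 and 0.063 at 50, 100 and 200 mg/kg-d and 0.271 at 300 mg/kg-d. Females at 200 mg/kg-d spread widest (SD 0.330, n = 6), from -0.452 to 0.537, with totals of 10570562 to 12092097 counts, and their highest slope lay above every library at 300 mg/kg-d. Totals at 300 mg/kg-d in both sexes were 14905474 to 20398635 counts, against 8457034 to 15439569 in the vehicle groups. Among the other doses a female library at 100 mg/kg-d reached 20405658 counts, in a group whose slopes were at most 0.0045. Between the 12 male livers compared, dose and depth cannot be told apart.

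Several gene lists moved with length. Proteasome subunits, the parts of the protein-degrading particle, were lower in 22 of 31 genes tested (median log2 fold change -0.25, median transcript length 1819 bases, against 3361 over all genes tested), and in 6 with the trend removed. The count was 12 without replicate 65 and 9 without vehicle replicate 6. In comparison 6.47% of all genes tested were lower, and 4.06% with the trend removed. Psmb3 fell from 7.83, 9.49 and 13.2 CPM to 4.33, 6.12 and 7.37 CPM (log2 fold change -0.69, SE 0.15, adjusted p 0.00185), with no overlap, and still passed with the trend removed (adjusted p 0.00687), as did the catalytic subunit Psmb5 (log2 fold change -0.44, adjusted p 0.0446 with the trend removed) and Psma2 (log2 fold change -0.49, adjusted p 0.00704). Psmb4 fell by 0.38 (adjusted p 0.00279, 0.0504 with the trend removed).

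Mitochondrial ribosomal protein genes were lower in 27 of 70 (median log2 fold change -0.22) and in 15 with the trend removed. Mrpl12, which also binds the mitochondrial RNA polymerase, went from 68.3, 81.9 and 101.7 CPM to 51.6, 60.7 and 69.3 CPM (log2 fold change -0.47, SE 0.08, adjusted p 6.36e-05), and Mrps16 fell by 0.50 (adjusted p 0.00295). The count was 13 without replicate 65 and 15 without vehicle replicate 6. Cytosolic ribosomal protein genes, which have the shortest transcripts of these lists (median 1100 bases), were lower in 11 of 74, and with the trend removed 1 was lower and 1 higher. The 7 lower genes of 74 nuclear genes of the respiratory chain, against 6.47% lower over all genes tested, became 0. Both of these counts were 0 without replicate 65, and 3 and 6 with only the compared groups fitted. In the same order they were 0 and 1 without vehicle replicate 6, 1 and 3 without vehicle replicate 7, and 4 and 5 without replicate 67. They went up to 22 and 16 without replicate 69 and to 21 and 10 without vehicle replicate 8. Without replicate 68 the respiratory chain count was 4 and the cytosolic count 7, and without replicate 72 the cytosolic count was 7.

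Chromatin regulators, a list chosen for its long transcripts (median 9296 bases), were higher in 16 of 31 genes with none lower. With the trend removed 8 were higher and 1 was lower, and without replicate 65 10 were higher. The share higher over all genes tested was 8.64%, and 4.66% with the trend removed. The acetyltransferase gene Ep300 went from 27.5, 31.6 and 36.5 CPM to 40.1, 44.6 and 54.9 CPM (log2 fold change 0.51, SE 0.09, adjusted p 0.000136), with no overlap, and its log2 fold change was 0.28 with the trend removed (adjusted p 0.0043). Its partner Crebbp, the corepressor Ncor1 and the histone methyltransferase Kmt2c rose by 0.53, 0.47 and 0.61 (adjusted p 0.000541, 0.000119 and 0.000564), and by 0.28, 0.24 and 0.35 with the trend removed (adjusted p 0.0298, 0.00608 and 0.00629).

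The lower male doses did not all lie between vehicle and 300 mg/kg-d, and since each is compared with the same 6 vehicle livers their values are given side by side. The median Saa1 level of the 6 livers of each group was 30.7 CPM with vehicle, 87.5, 68.3 and 79.4 CPM at 50, 100 and 200 mg/kg-d and 243 CPM at 300 mg/kg-d. For Cyp2b10 the medians were 22.8, 25.2, 25.7, 53.2 and 90.4 CPM in the same order, which climbed at 200 and 300 mg/kg-d only. For Il6st they were 132.8, 150.5, 174.6, 153.2 and 213.4 CPM. Gsta2 was as low at 50 and 100 mg/kg-d as at 300 mg/kg-d, with medians of 9.07, 9.98 and 9.78 CPM, against 20.9 CPM with vehicle and 14.9 CPM at 200 mg/kg-d. Srebf1 had the same shape, with medians of 422, 193.8, 189.5, 324 and 189.5 CPM.

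**Figure D5:**
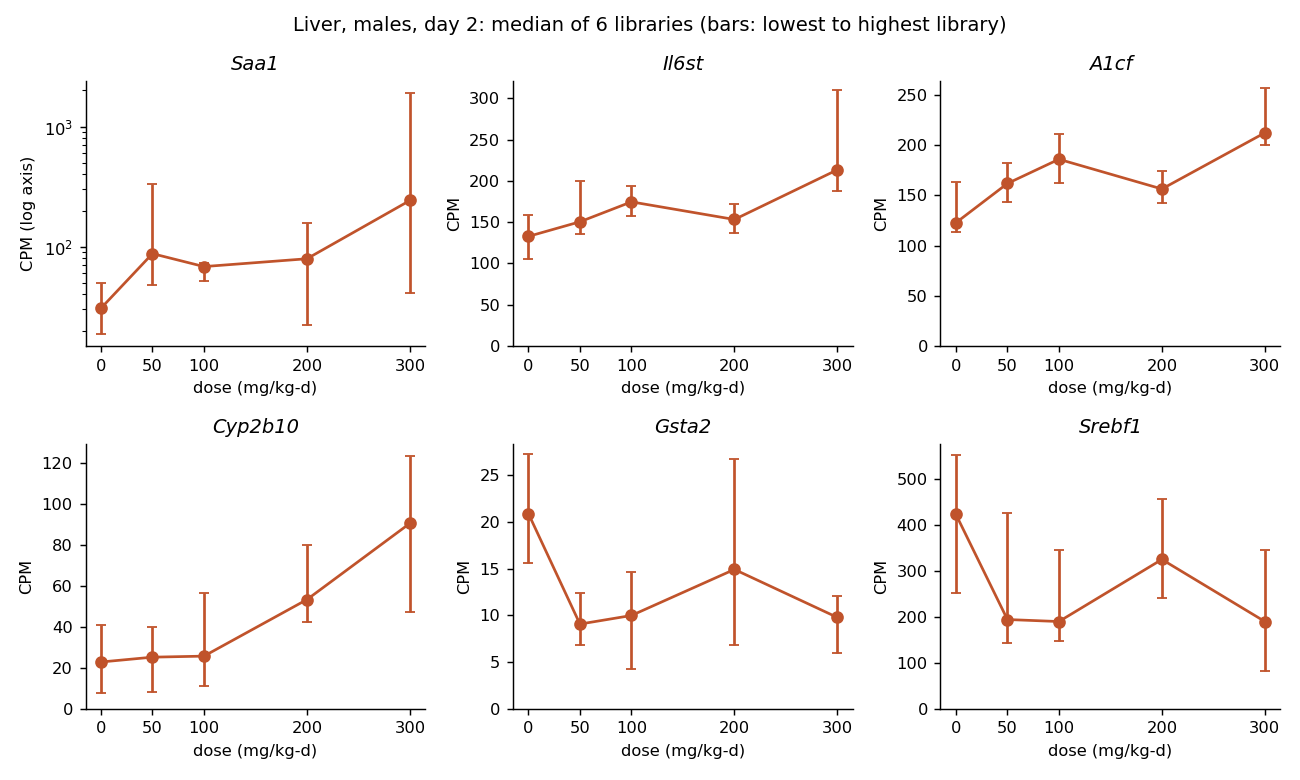
Median TMM-scaled CPM of 6 genes in male livers over the dose in mg/kg-d, with bars from the lowest to the highest of 6 libraries and a log axis for Saa1. Cyp2b10 climbs at 200 and 300 mg/kg-d, while Gsta2 and Srebf1 are low at 50, 100 and 300 mg/kg-d and higher at 200 mg/kg-d.

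The step from 200 to 300 mg/kg-d was tested directly between the groups of 6 males. Of all genes tested 4.02% were higher (507 genes) and 1.99% lower, and with the length trend removed 0.879% and 0.641% (81 genes), together 1.52%. Single libraries weighed heavily: the shares were 0.489% and 0.0947% (62 and 12 genes) without replicate 65, 2.30% and 1.00% without replicate 66 and 1.03% lower without replicate 67. They were 1.69% and 0.749% without replicate 49 of the 200 mg/kg-d group, 2.44% and 1.02% without its replicate 50, 1.61% and 0.473% without its replicate 52 and 1.03% lower without its replicate 54. Without replicate 69 the share lower went up to 4.14%. Il6st, A1cf and Hgf were higher at 300 than at 200 mg/kg-d by 0.57, 0.49 and 1.01 (adjusted p 0.00351, 0.0151 and 0.00502), as were Saa1, Saa2 and Lcn2 by 2.54, 4.29 and 1.80 (adjusted p 0.00725, 0.00362 and 0.0143). Lnpep was higher by 0.87 (adjusted p 0.00087), and Rtcb and Exosc7 were lower by 0.22 and 0.43 (adjusted p 0.00328 and 0.00131). Replicate 67 stood far above the other treated livers for Saa1 (1903 CPM, next 458), Saa2 (1172, next 117.9) and Lcn2 (38.96, next 9.04). Against vehicle Lcn2 lost its call by edgeR without that library (adjusted p 0.133). Values of named genes in this step without single libraries, or with the length trend removed, are not given here. Hp, Cyp2b10, Thrsp, Gsta2 and Dhx58 did not pass in this step, with log2 differences of 0.24, 0.57, -1.13, -0.70 and -0.42 (adjusted p 0.166, 0.52, 0.118, 0.105 and 0.165).

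Females at the same dose, measured in separate libraries, gave 1932 higher genes (15.3%) and 1855 lower genes (14.7%) against their own vehicle group. The female log2 fold changes of the genes above were 0.93 for Hp, 0.88 for Il6st, 1.71 for Hgf, 0.82 for A1cf, 2.48 for Cyp2b10, 0.42 for Acot3, -0.52 for Tkt, -1.27 for Gsta2 and -0.90 for Dhx58, and all but Acot3 passed. On the acute phase list 18 of 24 genes rose in females, 11 of 20 fatty acid synthesis genes fell, and 15 of 25 cholesterol genes fell. The correlation of male and female log2 fold changes across the 12627 genes was 0.685, and 0.650 with the length trend removed, where genes are not independent of each other. The test of the difference between the sexes called a single gene (0.00792%), Xist, at -4.78 (adjusted p 0.000214). It had 581 genes at an unadjusted p under 0.05, DESeq2 called 5, and edgeR on these 4 groups alone called 0. The single gene, Xist, is among the female-type transcripts carried by vehicle replicates 5, 6, 7 and 8, and without these libraries no gene was called. The call count was 3 without vehicle replicate 1 or 3 and 2 without female 300 mg/kg-d replicate 76 or 80. A miss in this test does not show that the sexes responded alike.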

How the data were processed

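RNA of whole livers was sequenced from TruSeq Stranded mRNA libraries, per the labels' protocols. The authors deposited raw counts of reads per gene, 1 table for all 60 day 2 liver libraries. Per the submitters' processing notes Trimmomatic, Bowtie2, SAMtools and HTSeq and the build mm10 were used. The sources used here give no tool versions, no gene annotation and no strand option for HTSeq, so reads of a gene and an overlapping antisense gene may not be separated. Number of per-sample columns not used: 0.

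Counts were tested with edgeR 4.0.16 (R 4.3.3) by a quasi-likelihood test over all 60 libraries in 10 groups, after filterByExpr and TMM scaling, with Benjamini-Hochberg adjustment over all genes tested and a threshold of 0.05, two-sided. SE is the log2 fold change divided by the root of the test statistic. Alternatives were DESeq2 1.42.0, RLE scaling, a fit of the compared groups alone, omission of the low-count filter, place in the block of title numbers as a term, each library left out, and removal of the length trend. After the data were seen, 4 more were added: vehicle replicates 5, 6, 7 and 8 left out, counts thinned to the smallest library total, and length removal combined with leaving out replicate 67 or with only the groups compared.

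Transcript length was the longest transcript per symbol in GENCODE M21 (GRCm38). For its removal a natural spline with 5 degrees of freedom on log10 length was fitted per library (prior count 2) and used as an offset. Length slopes used a pseudocount of 0.5 CPM. The edgeR fits, with and without removal of the length trend, were also run on simulated counts. The simulation gave all genes the same dispersion and all treated libraries the same length trend or none, unlike these data. Its outcome is not given, and no result here rests on it. Tables and figures were made with Python 3.11.15.

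The members and all gene lists were chosen with earlier results of these data known. Named genes were, with a group mean of at least 5 CPM, up to 20 by fold and 10 by adjusted p in each direction, up to 5 per list described, the 10 genes moved most by replicate 67, the leading genes of the sex difference and of 300 against 200 mg/kg-d, and fixed markers. The text gives a selection of them, and any further member of a described list that passed is named for completeness after its values were seen.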

Additional observations from a re-analysis of the deposited data

Results flagged for a closer look

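In each group of 6 males the highest and lowest library of every named gene was compared with its nearest neighbour, and 27 of 268 groups (10.1%) had an outlying library, where chance gives about 1 in 20. Since the named genes include those that replicate 67 moved most, neither this share nor its count is evidence about that library, which over all genes tested was outlying in 76 genes (64 to 192 over the 12 libraries). Replicate 67 was the outlying library in 9 of the 27 groups: Saa1 at 1903 CPM (next library 458), Saa2 at 1172 CPM (next 117.9), Hp at 5461 CPM (next 3845), Lcn2 at 38.96 CPM (next 9.04), Itih4 at 3184 CPM (next 2171), Itih3 at 1194 CPM (next 935), Fgl1 at 784 CPM (next 278.2), Orm2 at 56.4 CPM (next 19.9) and Xist at 0.3996 CPM (next 0.1238). Replicate 67 was the high library in each.

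Replicate 65 was the high library of F13b at 303.5 CPM (next 265.7), Lnpep at 28.17 CPM (next 18.8), Iqgap2 at 561 CPM (next 468) and Usp9x at 157.9 CPM (next 128.4). Replicate 66 was the high library of Acot1 at 137.9 CPM (next 64.1) and Acot2 at 16.03 CPM (next 7.49). Replicate 69 stood high for Gstm1 at 688 CPM (next 507) and Cyp2b9 at 3.26 CPM (next 0.781), and replicate 68 for Cyp2b13 at 0.0652 CPM, where the other treated livers were at 0. Replicate 72 stood high for Clock at 107.9 CPM (next 77.95) and Hsd3b7 at 364.7 CPM (next 303.6) and low for Ftcd at 293.1 CPM (next 345.3).

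Among vehicle livers, replicate 8 was high for Pros1 at 75.2 CPM (next 59.6) and A1cf at 163.2 CPM (next 130.1). Replicate 7 was high for Pnpla3 at 13.46 CPM (next 4.89) and low for Cyp3a13 at 132.7 CPM (next 148.6). Replicate 6 was high for Hp at 3078 CPM (next 2552) and replicate 3 for Hsd3b7 at 525 CPM (next 434).

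The log2 fold change of Xist at 300 mg/kg-d against vehicle differed between the sexes, by -4.78 as male minus female (adjusted p 0.000214 by edgeR). In males the vehicle level was a trace that lay in replicates 5, 6, 7 and 8, and without these libraries the difference was not called. It is therefore not shown to be an effect of the dose.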

How the results depend on the processing

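Shares below are percent of genes tested that passed, higher then lower, against 8.64% and 6.47% with all 12 libraries. Fitting only the compared groups gave 7.45% and 5.00%, together 1492 genes. Removing the length trend gave 4.66% and 4.06%, with replicate 67 also left out 3.66% and 3.26%, and with only the compared groups 2.93% and 2.24%. Without a low-count filter the share lower was 2.81% and higher genes made up 65.3% of the calls, against 57.2%. Leaving out vehicle replicates 5, 6, 7 and 8 gave 1.72% and 1.09%. With each library left out the shares ran from 4.28% to 9.22% higher and from 3.14% to 8.38% lower. For the sex difference (0.00792% lower) DESeq2 gave 0.0396%, only the compared groups 0 and omission of vehicle replicates 5, 6, 7 and 8 0, and single libraries left out gave 0.00788% to 0.0237%. For 300 against 200 mg/kg-d (4.02% and 1.99%) the share lower was 0.568% without the filter, removing the trend gave 0.879% and 0.641%, and single libraries left out gave 0.489% to 5.67% and 0.0947% to 4.14%. RLE scaling, DESeq2, place and thinned counts moved the 300 mg/kg-d counts by less than 1.5 times. Without vehicle replicates 5, 6, 7 and 8 the log2 fold change turned for G6pdx (0.11), Xist (0.51), Cyp2b13 (1.10) and A1bg (0.70), and without replicate 67 for Orm2 (-0.0020, and up to 0.75 without replicate 66). Of the named genes that passed, 26 kept the call in every alternative, 75 with each single library left out and 100 with the length trend removed. Most of the named genes that passed thus lost the call or direction in at least 1 alternative. The most calls were lost without vehicle replicates 5, 6, 7 and 8, and next with the length trend removed and only the compared groups fitted. In each of these fits most of the named genes that passed lost the call. The cause of these shifts was not tested. With 8457034 to 17758970 counts per library, genes of few CPM carry wide counting error, and totals did not overlap between groups. No paired analysis was possible because the groups compared share no replicate numbers. Place of the title number in its block, which no label ties to an animal, litter or day, was fitted as a linear term only.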

Other observations

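Lists of stress genes and of translation are given here for 300 mg/kg-d in males. No gene of 23 ER chaperone and unfolded protein response genes tested was called by edgeR (2 had an unadjusted p under 0.05), and DESeq2 called 0 higher and 0 lower. By edgeR 1 gene of that list passed without replicate 66, 67 or 72 or vehicle replicate 1. Heat shock chaperones gave 1 call higher of 20, p53 targets 1 of 19, and AHR targets 1 lower of 7, which was Nqo1. The integrated stress response list had 1 gene higher and 1 lower of 20. Ribosome biogenesis genes were lower in 4 of 30 (median log2 fold change -0.19) and cytosolic translation factors in 7 of 33 with 1 higher, and with the length trend removed 3 and 2 were lower. Over all genes tested 8.64% were higher and 6.47% lower. The count of lower translation factors was 2 without replicate 65, 3 without vehicle replicate 7 and 4 without replicate 68 or vehicle replicate 6, and that of ribosome biogenesis 2 without replicate 65 or 67 or vehicle replicate 7. The single calls of heat shock chaperones and p53 targets were lost in 7 and 6 of the 12 fits that leave out 1 library.

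Lung was sequenced under the same title numbers, and the labels do not say that a number marks the same animal in both tissues. In the day 2 lung library numbered 67, Saa3 stood at 1.35 CPM, within the 6 vehicle males of 1.34 to 3.39 CPM, Lcn2 at 103.1 CPM within 91.8 to 145.6 CPM and Hp at 964 CPM within 885 to 1112 CPM.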
